A study of Mus musculus with 6 samples.

Results

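Wide accessible sites were taken from a table of 578591 sites measured by ATAC-seq, the assay in which a transposase cuts open chromatin and the cut fragments are sequenced. A site counted as wide when it lay on chromosomes 1 to 19, spanned at least 1500 bp and had a mean signal over the 6 libraries below 65, in library-scaled reads (TMM, a method that sets the libraries to a common level). By these limits 2214 of the 534067 sites on those chromosomes were wide, or 0.415%. The study treated bone marrow-derived macrophages (BMDMs) of wild-type C57BL/6 mice (C57BL/6J in the growth protocol), grown from marrow in medium conditioned by L929 cells, and sequenced 1 library per group. The groups were Untreated; IL-4, given at 20 ng/ml for 24 hours; DMSO; DMSO + IL-4; LatA + IL-4, with latrunculin A at 1 µM; and MCSF + IL-4, with macrophage colony-stimulating factor at 100 ng/ml. All 6 groups therefore shared the growth medium, and those with IL-4 shared its dose and time. The labels do not say whether the libraries came from the same animals, and no marker of the cell type could be checked, since no gene annotation of the mm9 build used by the files was applied here.

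In open chromatin the transposase reaches DNA that is not wrapped around nucleosomes, and a typical accessible element spans no more than a few nucleosomes. Wide open stretches are known from promoters rich in CpG and from clusters of neighbouring enhancers, where several elements lie side by side. IL-4 drives macrophages into a tissue repair program through the transcription factor STAT6, latrunculin A binds actin monomers and takes filaments apart, and macrophage colony-stimulating factor is the growth factor on which these cells depend. L929-conditioned medium is itself a source of that factor. A site here is an interval of the table, so its width was set by peaks called on reads from the same libraries. With 1 library per group no difference between groups could be tested, each ratio compares 2 libraries, and the 95% exact intervals given for single sites cover counting error only.

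The 2214 sites had a median width of 1757 bp, with quartiles of 1601 and 1972 bp and a maximum of 4667 bp. Of them 528 were at least 2000 bp wide, 48 at least 3000 bp and 5 at least 4000 bp. At the width limit, 8 sites were exactly 1500 bp wide, with mean signal of 3.16 to 24.0 and a median of 6.51, and 5 sites left out were 1499 bp wide, with mean signal of 4.10 to 12.7 and a median of 4.24. At the signal limit, the wide site with the highest mean, chr1:173001743-173003334, stood at 62.8, and the lowest of the 23 sites left out, chr15:74915912-74917499, at 69.3. A further 156 sites of this width on chromosome X and 5 on chromosome Y lay outside the rule. The wide sites held 1.75% to 1.93% of the reads in sites of chromosomes 1 to 19, in libraries with 12387332 to 19889902 reads in all sites. A wide site had a median of 66 to 119 reads per library, the fewest in MCSF + IL-4 and the most in Untreated.

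Most wide sites were not single wide peaks. A peak here is an interval called by MACS2 in 1 library, and a wide site held a median of 12 peaks over the 6 lists, from 2 to 39. The widest single peak in a site had a median of 1033 bp, 56.4% of the width of its site. In 336 wide sites, or 15.2%, at least 1 library had a single peak of at least 1500 bp, and in 7 sites all 6 libraries had one. Peaks of all 6 lists together covered a median of 98.8% of a site, with 57.8% as the lowest, and 878 sites were covered end to end. In 711 sites the joined peaks left at least 1 gap. No peak reached past the edge of a site. Of all sites on chromosomes 1 to 19, 48672 or 9.11% overlapped no peak of the 6 lists, so the table also holds intervals that these lists do not give. How peaks were joined into sites is not given in the sources used here.

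The libraries differed in how much of a wide site their own peaks covered. The median share of the width covered was 67.0% in Untreated and 53.1% with IL-4, 56.7% in DMSO and 44.9% with DMSO + IL-4, 38.4% under LatA + IL-4 and 41.6% under MCSF + IL-4. No peak at all was called in 23 wide sites in Untreated and 43 with IL-4, 32 in DMSO and 79 with DMSO + IL-4, 132 under MCSF + IL-4 and 230 under LatA + IL-4. The LatA + IL-4 library thus had the most wide sites without a peak and the lowest share covered. Even so, it had a single peak of at least 1500 bp in 113 wide sites, against 156 in Untreated, 93 in DMSO, 83 in MCSF + IL-4, 70 in IL-4 and 30 in DMSO + IL-4. In 1784 wide sites every library had a peak, and in 16 fewer than 4 libraries did. In the sites with a peak in every library, the strongest summits of the 6 libraries were spread over a median of 966 bp, so that the highest point often lay at different places along the same site. Depth differed between these libraries, and the median fold enrichment of all peaks in a list ran from 3.73 in Untreated to 4.77 in LatA + IL-4. Their part in the peak counts was not tested.

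The mean signal of the wide sites had a median of 5.33, with quartiles of 4.20 and 8.53 and a range of 1.88 to 62.8. For comparison, 69605 sites narrower than 1500 bp in the same signal range were weighted so that their mean signal had the same distribution over 20 bins, which makes the number of reads behind a value about equal. These narrower sites had a weighted median width of 719 bp. Signal per kb of site had a median of 2.83 in wide sites, with quartiles of 2.35 and 4.46, against a weighted median of 8.57 in narrower sites, with quartiles of 5.97 and 12.6. At equal signal a wider site must have less signal per kb, so this difference is set by the width limit and the weighting and is given as a description only. So is the share of wide sites with less signal per kb than the lower quartile of the narrower ones, 83.9%.

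**Figure D1:**
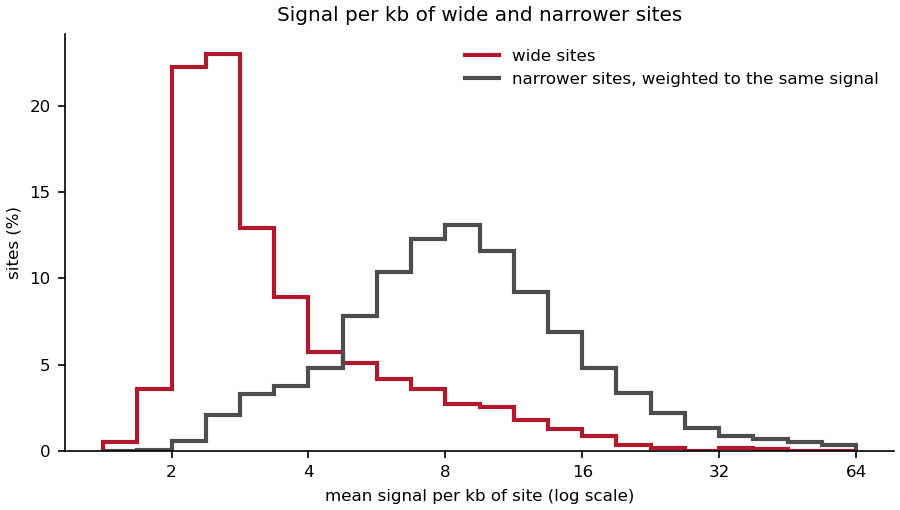
Distribution of mean signal per kb of site on a log axis, as the percent of sites in each bin, for the 2214 wide sites and for narrower sites weighted to the same mean signal. The wide sites peak near 2 to 3 with a tail to 39.8, and the narrower sites peak near 8.

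Library by library, the order of the medians was not the same in wide and narrower sites. The median signal of wide sites was 5.70 in Untreated and 5.50 with IL-4, 5.60 in DMSO and 5.37 with DMSO + IL-4, 4.64 under LatA + IL-4 and 5.01 under MCSF + IL-4. In narrower sites the weighted medians were 4.03, 4.64, 5.02, 4.97, 7.58 and 6.98 in the same order of libraries. Wide sites were thus lowest at the median in the LatA + IL-4 and MCSF + IL-4 libraries, and narrower sites of the same mean signal were highest there. The upper quartiles of wide sites had another order than the medians, with 7.99 in Untreated, 9.33 with MCSF + IL-4 and 9.56 with LatA + IL-4. The LatA + IL-4 library had the lowest normalized reads at 809 wide sites (36.5%) and the highest at 416 (18.8%), whereas it was the highest at 55.3% of the weighted narrower sites. The Untreated library was the highest at 596 wide sites (26.9%) and the lowest at 51.9% of the narrower ones. The highest library exceeded the lowest by a median of 0.93 on the log2 scale in wide sites and 1.16 in narrower sites.

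The question put by the 6 comparisons is how IL-4, the vehicle, latrunculin A and macrophage colony-stimulating factor change accessibility. Ratios were taken as log2 of normalized reads with 1 read added, and a site counted as higher or lower at 1.5-fold. All 2214 wide sites passed the filter on low reads (20 normalized reads on average), as did 132057 sites in all, which give the background percent below.

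With latrunculin A added to IL-4, wide sites and narrower sites went different ways at the median. The label of the LatA + IL-4 library names no DMSO. The median log2 ratio of LatA + IL-4 against DMSO + IL-4 was -0.17 in wide sites, with quartiles of -0.54 and 0.40, against 0.57 in the weighted narrower sites and 0.20 over all tested sites. At least 1.5-fold higher were 428 wide sites, or 19.3%, against a background of 30.1% of all tested sites and 48.4% of the narrower ones. At least 1.5-fold lower were 500 wide sites, or 22.6%, against a background of 15.7% and 3.90% of narrower sites. Wide sites were therefore below the background in one direction and above it in the other. With the libraries scaled to their reads outside the largest sites (averages from 1000 normalized reads up), 268 were higher and 779 lower, so that the higher sites made up 25.6% of those called in place of 46.1%. These were 12.1% and 35.2% of wide sites, against 20.4% and 22.6% of all tested sites on that scale. With ratios centred on all tested sites of the same mean reads, 101 were higher and 1227 lower, or 7.61% higher among those called. These were 4.56% and 55.4% of wide sites, against 19.2% and 19.8% of all tested sites centred in that way. The median of wide sites was below 0 under each of the 3 other scales tried, and on 18 of 19 chromosomes. Chromosomes of 1 pair of libraries are not replicates, so this count is a description only.

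Added macrophage colony-stimulating factor gave a pattern of the same form in a pair of libraries that shares neither library with the first. The mean signal behind the limits and weights came from all 6 libraries, so these patterns are not independent. The median log2 ratio of MCSF + IL-4 against IL-4 was -0.12 in wide sites, with quartiles of -0.46 and 0.40, against 0.58 in narrower sites and 0.16 over all tested sites. Higher were 443 wide sites, or 20.0%, against a background of 29.2% and 49.5% of narrower sites. Lower were 379, or 17.1%, against a background of 14.9% and 4.12% of narrower sites. Scaled to reads outside the largest sites, 293 were higher and 698 lower, which is 29.6% higher among those called in place of 53.9%, and 13.2% and 31.5% of wide sites against 19.8% and 22.9% of all tested sites. Centred on sites of the same mean reads, 113 were higher and 1149 lower, or 8.95% higher among those called, and 5.10% and 51.9% of wide sites against 19.6% and 18.4% of all tested sites. The median was below 0 under each of the 3 other scales and on 17 of 19 chromosomes. For IL-4 against Untreated it was below 0 on 17, and for DMSO + IL-4 against DMSO on 19. In the vehicle comparisons it was below 0 on 9 (DMSO against Untreated) and 10 (DMSO + IL-4 against IL-4).

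Past 1.5-fold in both of these comparisons, 256 wide sites (11.6%) were higher, against a background of 15.4% and 29.5% of narrower sites. In both comparisons 142 wide sites (6.41%) were lower, against a background of 4.36% and 1.12% of narrower sites. Scaled to reads outside the largest sites, 115 were higher and 356 lower in both (5.19% and 16.1%, against 7.62% and 8.98% of all tested sites). Centred on sites of the same mean reads, 25 and 841 were (1.13% and 38.0%, against 7.93% and 6.83%), so which direction held more wide sites depends on the scale.

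On the TMM scale, fewer wide sites were called in either direction with IL-4 than with latrunculin A or macrophage colony-stimulating factor added. The median log2 ratio of IL-4 against Untreated was -0.06 in wide sites, 0.18 in narrower sites and 0.10 over all tested sites. Higher were 193 wide sites, or 8.72%, against a background of 20.8%, and lower were 179, or 8.08%, against a background of 8.88%. Of narrower sites 23.7% were higher and 5.39% lower. Scaled to reads outside the largest sites, the higher sites made up 38.8% of those called in place of 51.9%. Centred on sites of the same mean reads, they made up 30.7%. On the former scale 7.50% of wide sites were higher and 11.8% lower, against 17.9% and 11.6% of all tested sites. Centred, 6.73% of wide sites were higher and 15.2% lower, against 16.997% and 12.3% of all tested sites. In DMSO the IL-4 ratio had a median of -0.08 in wide sites, -0.04 in narrower sites and 0.01 over all tested sites. Higher were 169 wide sites, or 7.63%, against a background of 16.6%, and lower were 270, or 12.2%, against a background of 12.8%. Of narrower sites 14.4% were higher and 10.3% lower. In both IL-4 comparisons, which share no library, 65 wide sites (2.94%) were higher against a background of 8.73%, and 53 (2.39%) were lower against a background of 2.38%. The share lower in both was at the background, and the share higher in both lay below it and below the 11.1% of narrower sites.

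The vehicle comparisons show how far libraries lay apart with neither latrunculin A nor the growth factor added. DMSO against Untreated had a median log2 ratio of 0.02 in wide sites, 0.35 in narrower sites and 0.18 over all tested sites. Under the 3 other scales the wide median was -0.10, -0.01 and -0.09, so its sign depends on the scale. Higher were 162 wide sites, or 7.32%, against a background of 16.8%, and lower were 148, or 6.68%, against a background of 7.24%. Of narrower sites 18.1% were higher and 1.80% lower. Scaled to total reads in sites, 114 were higher and 230 lower (5.15% and 10.4%, against 10.9% and 10.5% of all tested sites), or 33.1% higher among those called in place of 52.3%. Scaled to reads outside the largest sites, 35.0% of those called were higher, and centred on sites of the same mean reads, 11.6%. On the former scale 5.37% of wide sites were higher and 9.98% lower, against 11.5% and 10.1% of all tested sites. Centred, 2.89% and 22.0% of wide sites were, against 10.1% and 10.7%. DMSO + IL-4 against IL-4 had a median of -0.01 in wide sites, 0.12 in narrower sites and 0.06 over all tested sites. Higher were 149 wide sites, or 6.73%, against a background of 11.2%, and lower were 208, or 9.39%, against a background of 9.8%. Of narrower sites 5.91% were higher and 2.89% lower. In both vehicle comparisons the lower share of wide sites was just under the background and above that of narrower sites. The higher share of those called was 41.7%, and 28.1% when centred on sites of the same mean reads. Centred, 5.01% of wide sites were higher and 12.8% lower, against 9.98% and 10.7% of all tested sites. The wide median was below the narrower one in all 6 comparisons, by 0.04 to 0.74 on the log2 scale, except that DMSO + IL-4 against DMSO turned to 0.0017 at a width limit of 2000 bp. The 2 vehicle comparisons gave differences of -0.33 and -0.14 with no actin drug or growth factor added.

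The gap between wide and narrower sites depended on signal. Over the 20 bins, the wide median of the latrunculin A ratio was below 0 in 14, all with mean signal up to 7.26, and below the narrower median in 17. In the lowest bin, with mean signal of 1.88 to 3.37, the medians were -0.42 in wide and 0.15 in narrower sites. In the bin from 6.46 to 7.26 they were -0.15 and 0.64, and in the bin from 8.53 to 10.1 they were 0.59 and 0.60. Above that signal wide and narrower sites lay close together in this ratio, with 0.51 and 0.45 in the highest bin. The ratio with macrophage colony-stimulating factor changed sign between the same bins, from -0.06 at 6.46 to 7.26 to 0.32 at 7.27 to 8.52, and the wide median was below the narrower one in 19 of 20 bins. For IL-4 against Untreated and both vehicle comparisons the wide median lay below the narrower one in 20 of 20 bins, and for DMSO + IL-4 against DMSO in 18 of 20. Mean signal includes both libraries of each ratio, so a bin is not independent of the ratio shown in it.

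**Figure D2:**
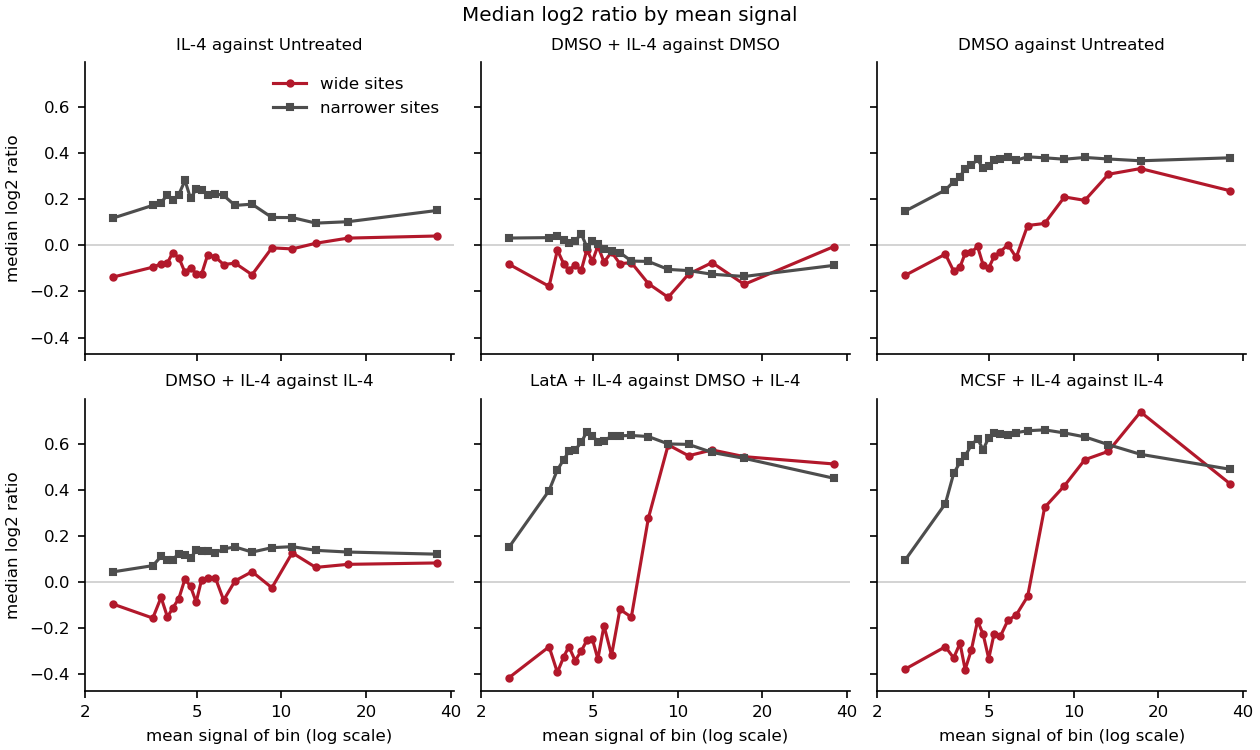
Median log2 ratio in each of 20 bins of mean signal (log axis), 1 panel per comparison, for wide sites (circles) and narrower sites (squares). In the latrunculin A and MCSF panels the wide medians are below 0 up to a signal of 7.26 and above 0 beyond it, and in the latrunculin A panel they meet the narrower ones from a signal of 8.53, while in DMSO + IL-4 against DMSO both lines run close to 0.

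Wide sites were also placed in 4 classes of equal size by signal per kb, from class 1, the lowest, to class 4, with limits at 2.35, 2.83 and 4.45. These classes were made after the values had been seen, and signal per kb is built from the same 6 libraries as the ratios, LatA + IL-4 and MCSF + IL-4 included. A site high in those libraries is thereby moved towards class 4, so the medians and counts by class are a description. Median log2 ratios with latrunculin A were -0.36, -0.30, -0.11 and 0.58 in classes 1 to 4, and with macrophage colony-stimulating factor -0.35, -0.26, -0.08 and 0.60. In class 1, latrunculin A left 24 of 554 sites higher and 169 lower. In class 4, 276 of 554 were higher and 77 lower. The share higher, 49.8%, was close to the 48.4% of narrower sites and above the 30.1% of all tested sites, whereas the share lower, 13.9%, was above the 3.90% of narrower sites and near the 15.7% of all tested sites. With macrophage colony-stimulating factor, 27 were higher and 147 lower in class 1, and 284 higher (51.3%) and 43 lower (7.76%) in class 4, against 49.5% and 4.12% of narrower sites and 29.2% and 14.9% of all tested sites. IL-4 against Untreated differed less between the classes, with medians of -0.10, -0.07, -0.07 and -0.01. DMSO against Untreated ran from -0.09 in class 1 to 0.28 in class 4.

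The 4 classes also differed in their peaks and in their surroundings. A single peak of at least 1500 bp was present in 17 sites of class 1 (3.07%), 32 of class 2, 69 of class 3 and 218 of class 4 (39.4%). The widest peak of a site had a median of 784 bp in class 1 and 1394 bp in class 4, although the median width of the sites was 1759 and 1700.5 bp. The highest fold enrichment in a site had a median of 5.20 in class 1 and 11.4 in class 4. In sites with a peak in all 6 libraries, 297 of class 1 and 545 of class 4, the strongest summits were spread over a median of 1224 bp and 545 bp. Class 4 sites held wider and stronger single peaks, and their summits lay closer together where all libraries had a peak. Peaks were called on reads of the libraries that also set the classes, so these differences are a description only. In class 1, the LatA + IL-4 library had no peak in 27.1% of sites and the MCSF + IL-4 library in 15.3%, against 1.81% in Untreated. In class 4 these shares were 0.722%, 0 and 0.181%. Fold enrichment, the width of the widest peak and the share of sites without a peak moved with the ratios across the classes, and their part in the ratios was not tested.

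**Figure D3:**
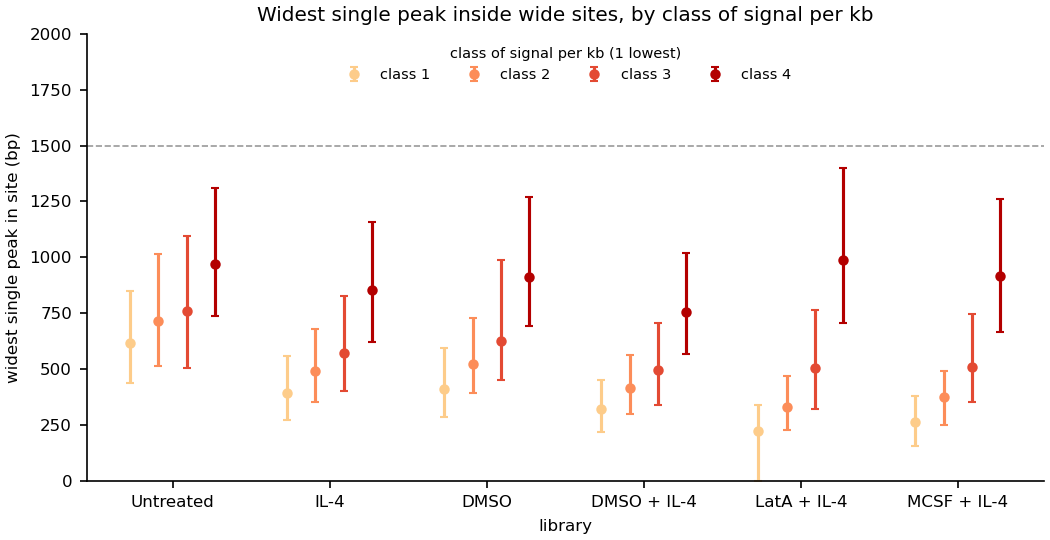
Widest single peak in each wide site by library and class of signal per kb, in bp; points are medians, bars run from the lower to the upper quartile, a site without a peak counts as 0, and the dashed line is 1500 bp. In LatA + IL-4 the median runs from 222.5 bp in class 1 to 989 bp in class 4, the widest span of the 6 libraries, and in Untreated from 614.5 to 970.5 bp.

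Weighting narrower sites to the wide sites by signal per kb in place of signal gave a different comparison. Those narrower sites had a median width of 645 bp and a median signal of 1.88. Their median log2 ratio was 0.02 with latrunculin A and 0.01 with macrophage colony-stimulating factor, which left wide sites lower by 0.19 and 0.13 in place of 0.74 and 0.70. In the 336 wide sites with a single peak of at least 1500 bp, whose median signal per kb was 5.58, the medians were 0.20 and 0.21. At equal signal, width and signal per kb are the same quantity turned around, so they cannot be told apart as the property that goes with the ratio.

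Individual sites were named by a rule on width or on the size of the ratios, and their values are given as a description. The widest of all, chr2:52553479-52558145 (4667 bp), held 36 peaks, of which the widest was 1288 bp. Its signal was 31.6 in Untreated and 24.99 with IL-4, 34.3 in DMSO and 28.8 with DMSO + IL-4, 43.0 under LatA + IL-4 and 40.4 under MCSF + IL-4. The libraries with latrunculin A and added growth factor were the highest, 1.495-fold (95% interval 1.31 to 1.71) and 1.62-fold (1.42 to 1.85) above their IL-4 controls. The next, chr9:117996886-118001532 (4647 bp), held 39 peaks and ranged only from 16.8 in DMSO to 25.9 in LatA + IL-4. The third, chr9:103198541-103202827 (4287 bp), had signal of 6.57 in Untreated and 18.4 with IL-4, 31.3 in DMSO and 19.1 with DMSO + IL-4, 26.8 under LatA + IL-4 and 12.7 under MCSF + IL-4. There the DMSO library stood 4.76-fold (3.94 to 5.79) above Untreated, a difference between libraries that had received neither IL-4 nor an inhibitor.

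Among the 64 wide sites that could be named as higher in both IL-4 comparisons, the site whose smaller ratio was highest was chr6:129463931-129465470 (1540 bp). Its signal was 1.82 in Untreated and 11.9 with IL-4, 2.74 in DMSO and 13.1 with DMSO + IL-4, 16.2 under LatA + IL-4 and 16.8 under MCSF + IL-4. The 4 libraries with IL-4 were all above the other two. IL-4 gave 6.53 times the reads without vehicle (4.59 to 9.51) and 4.77 times in DMSO (3.43 to 6.74). A single peak of 1528 bp, nearly the whole site, was called there.

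The site chr16:11634546-11636580 (2035 bp) had signal of 1.82 in Untreated and 14.9 with IL-4, 1.92 in DMSO and 7.46 with DMSO + IL-4, 17.3 under LatA + IL-4 and 30.0 under MCSF + IL-4. The IL-4 ratio was 8.20 (5.81 to 11.9) without vehicle and 3.87 (2.58 to 5.95) in DMSO. Both added treatments were again above their IL-4 controls, 2.32-fold (1.82 to 2.97) with latrunculin A and 2.01-fold (1.70 to 2.37) with macrophage colony-stimulating factor. At chr11:113643849-113645450 (1602 bp) the signal was 3.16 in Untreated and 3.38 in DMSO, and between 11.8 and 14.5 in the 4 libraries with IL-4. All of these sites had more signal per kb than most wide sites, from 6.01 to 6.77.

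Of the 46 sites that could be named as lower in both, chr1:184822937-184824839 (1903 bp) had signal of 11.1 in Untreated and 2.29 with IL-4, 8.11 in DMSO and 2.41 with DMSO + IL-4, 7.10 under LatA + IL-4 and 0.0759 under MCSF + IL-4. It was 4.86-fold lower with IL-4 without vehicle (3.41 to 7.11) and 3.37-fold lower in DMSO (2.26 to 5.18). The MCSF + IL-4 library held 1 read there against 36 in IL-4, a ratio of 0.0331 (0.000817 to 0.197), and LatA + IL-4 held 104. The site thus differed between the latrunculin A and growth factor libraries more than with IL-4. At chr1:10468379-10470069 (1691 bp) the signal was 4.79 in Untreated and 1.84 with IL-4, 7.58 in DMSO and 1.84 with DMSO + IL-4, 6.63 under LatA + IL-4 and 2.96 under MCSF + IL-4. In DMSO the IL-4 library was 4.11-fold lower (2.63 to 6.72), and with latrunculin A the signal stood near that of DMSO. At chr9:87099640-87101195 (1556 bp) the signal was 2.49, 0.954, 6.88, 2.65, 6.28 and 9.10 in the same order of libraries. DMSO + IL-4 stood at the level of Untreated there and was low against DMSO, LatA + IL-4 and MCSF + IL-4.

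Among 254 wide sites that could be named as higher with both latrunculin A and macrophage colony-stimulating factor, chr8:40721094-40722635 (1542 bp) had signal of 1.34 in Untreated and 2.29 with IL-4, 1.69 in DMSO and 1.92 with DMSO + IL-4, 8.13 under LatA + IL-4 and 7.89 under MCSF + IL-4. The first 4 libraries ranged from 1.34 to 2.29, with IL-4 1.71-fold above Untreated (1.01 to 2.90). The last pair stood above all of them, at 4.22-fold (2.71 to 6.85) and 3.45-fold (2.34 to 5.19) over their IL-4 controls. At chr13:38734010-38735848 (1839 bp) the signal was 5.46, 6.23, 6.30 and 5.61 in the first 4 libraries, 18.9 under LatA + IL-4 and 30.7 under MCSF + IL-4. The ratios were 3.37 (2.59 to 4.45) and 4.92 (3.94 to 6.20). The site chr1:13327489-13329333 (1845 bp) differed in form. Its signal was 8.15 in Untreated and 4.20 with IL-4, 6.65 in DMSO and 3.05 with DMSO + IL-4, 10.3 under LatA + IL-4 and 17.7 under MCSF + IL-4, so the libraries with IL-4 alone were the lowest.

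In the other direction 130 sites could be named. The one whose smaller fall was the greatest, chr6:112174320-112177003 (2684 bp), had signal of 7.72 in Untreated and 8.84 with IL-4, 4.08 in DMSO and 8.90 with DMSO + IL-4, 2.12 under LatA + IL-4 and 2.28 under MCSF + IL-4. Latrunculin A gave a value 4.20-fold lower (2.80 to 6.48), and macrophage colony-stimulating factor one 3.88-fold lower (2.60 to 5.97). At chr1:18527099-18528599 (1501 bp) the signal was 4.22, 7.31, 3.67, 3.77, 1.30 and 3.03 in the same order of libraries. At chr12:114573057-114575108 (2052 bp) it was 9.30, 9.47, 2.74, 9.30, 2.12 and 3.95. The DMSO library was low there as well, 3.39-fold below Untreated (2.45 to 4.77) with no inhibitor added. These sites had signal per kb of 2.11, 2.59 and 2.995, against a median of 2.83 and a lower quartile of 2.35 in wide sites. The named sites higher with both treatments had 2.51, 6.63 and 4.52, and those lower with IL-4 had 2.72, 2.53 and 3.04.

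The most even wide site over the 6 libraries was chr16:64917179-64918812 (1634 bp), with signal of 5.27, 5.72, 5.77, 5.37, 5.60 and 5.77 in the same order. Its highest library was 1.10 times its lowest. The next were chr1:80985352-80986867 (1516 bp), at 3.93 to 4.39, and chr9:68307384-68308890 (1507 bp), at 3.01 to 3.38. With 40 to 110 reads per library at these sites, the counting intervals of all their ratios include 1. This follows from choosing the sites for the smallest range over the libraries.

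**Figure D4:**
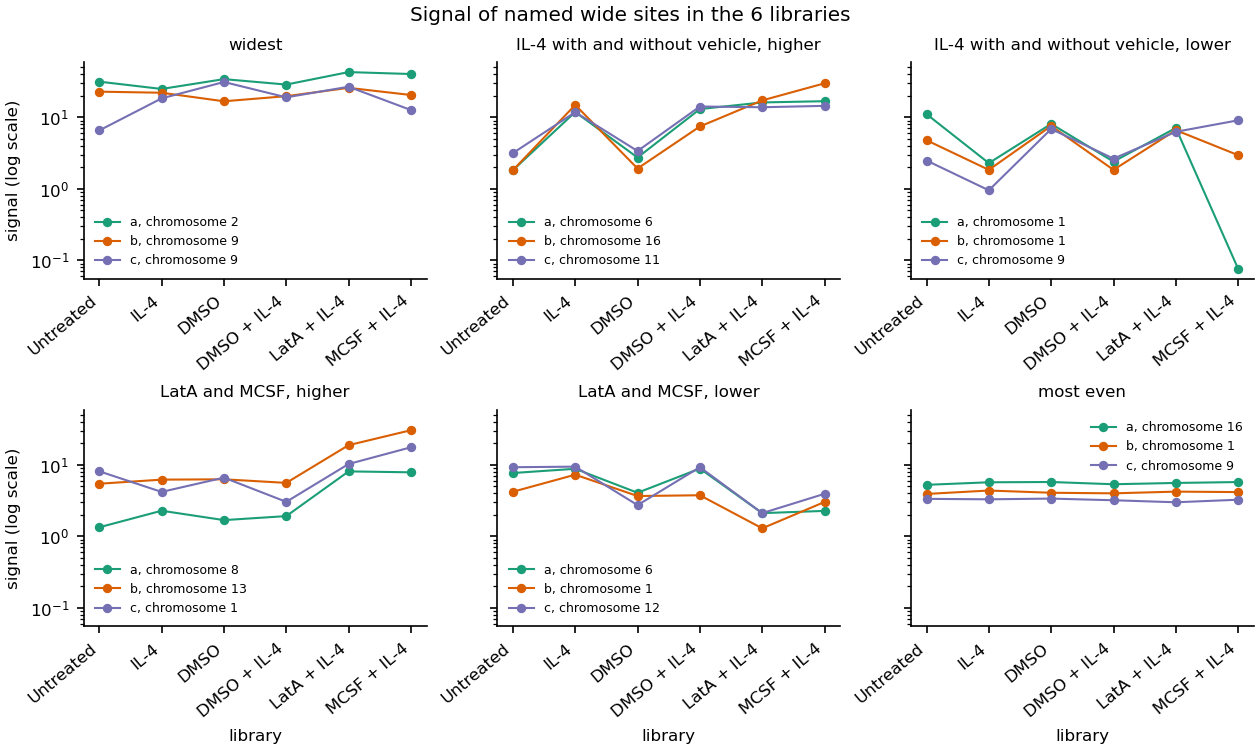
Signal (log axis) of the named wide sites in the 6 libraries, 3 sites per panel in the order given in the text; lines join the values of 1 site and mark no order of the libraries. Sites higher with IL-4 separate the libraries with IL-4 from Untreated and DMSO, the most even sites are flat, and 1 site lower with IL-4 drops to 0.0759 in MCSF + IL-4.

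Wide sites often had another site close by. The gap to the nearest other site had a median of 533.5 bp, with quartiles of 105 and 2945 bp, against a weighted median of 1036 bp in narrower sites, with quartiles of 294 and 2780 bp. Another site lay within 200 bp of 35.7% of wide sites and 19.2% of narrower sites, and within 10000 bp of 97.0% and 98.3%. The nearby sites were mostly weak. Counting only neighbours that average 20 or more normalized reads, the order turned, with median gaps of 6282.5 bp for wide and 3373 bp for narrower sites. Within 10000 bp a wide site had a median of 4 other sites and a narrower one 5. Close neighbours were commonest in class 1, where the median gap was 153.5 bp and 55.1% had a site within 200 bp, against 1397.5 bp and 21.5% in class 4.

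At the median, wide sites did not lie closer to each other than narrower sites lay to them. The gap to the nearest other wide site had a median of 369178.5 bp, against 335166 bp from a weighted narrower site to a wide one, and ran from 21 to 3600437 bp. Another wide site lay within 1000 bp of 16 wide sites (0.723%, against 0.315% of narrower sites), within 10000 bp of 53 (2.39%, against 2.03%) and within 100000 bp of 443 (20.0%, against 20.1%). The share of sites that were wide ran from 3.44 per 1000 on chromosome 10 to 5.09 on chromosome 9, with 4.15 over all 19 chromosomes.

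**Figure D5:**
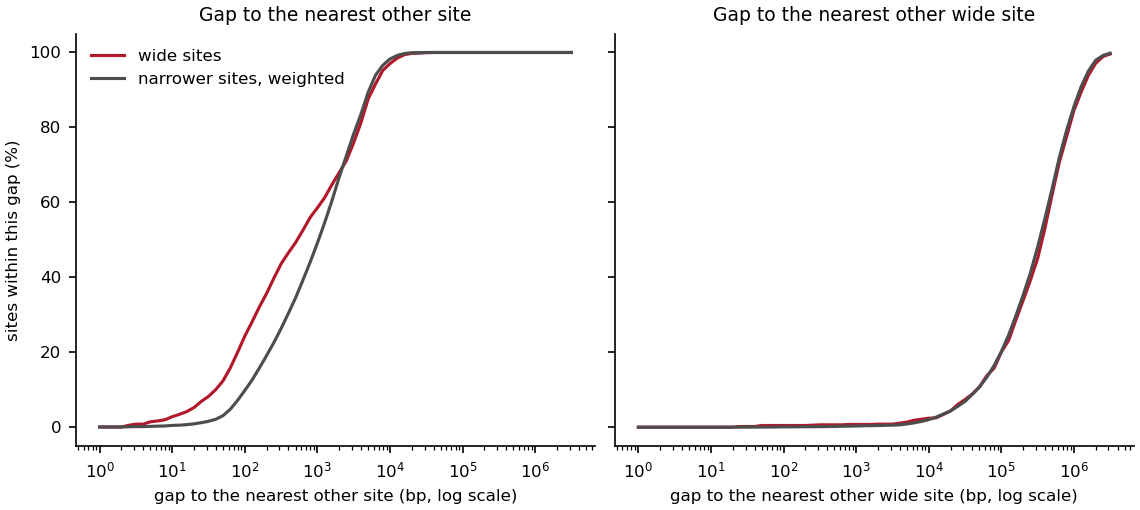
Percent of sites whose gap to the nearest other site (left) or nearest other wide site (right) is at most the value on the log axis, in bp, for wide sites and weighted narrower sites. On the left the wide curve is higher below about 2000 bp, with 35.7% against 19.2% at 200 bp, and on the right the curves run together.

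In windows of 100 kb the most wide sites found was 3, in 17 windows that start at a wide site. The densest, at chr1:172993922-173010950, held 3 sites of 1781, 1592 and 1577 bp within 17029 bp, with mean signal of 61.2 to 62.8. The first had signal of 28.2 in Untreated and 42.9 with IL-4, 34.9 in DMSO and 49.9 with DMSO + IL-4, 99.5 under LatA + IL-4 and 111.8 under MCSF + IL-4. The second had 29.6, 43.7, 34.6, 51.3, 102.7 and 115.0, and the third 29.5, 43.7, 34.3, 50.8, 102.9 and 115.2, in the same order. The 3 sites were nearly equal in every library, with log2 ratios of 1.00 to 1.02 with latrunculin A and 1.38 to 1.40 with macrophage colony-stimulating factor. Reads could be placed at up to 10 positions by the aligner, and whether these sites share reads was not tested.

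The next windows by the rule held unlike sites. At chr1:129961563-130000415 the latrunculin A log2 ratio was 0.64, -0.47 and 0.60 at its 3 sites, of 2131, 2798 and 1505 bp. At chr17:36078120-36117668 it was 0.16, -0.66 and 0.97, of 1835, 1634 and 1580 bp. Neighbouring wide sites thus could differ in direction.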

How the data were processed

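ATAC-seq reads (paired ends of 38 bp) from 6 BMDM libraries, 1 per group as given by the labels, had been trimmed with Cutadapt and aligned to mm9 with Bowtie2, which could report up to 10 positions per read. Duplicates, blacklisted regions and mitochondrial reads had been removed, and peaks had been called per library with MACS2 (q below 0.05). Tool versions and the way peaks were joined into sites are not given in the sources used here. The signal in the deposited site table was made by the authors from featureCounts reads by TMM scaling in edgeR. Each deposited peak list gives a score, a fold enrichment, a −log10 p and a −log10 q, all as MACS2 wrote them for the authors. In the analysis these columns served only for fold enrichment and for 1 alternative peak threshold.

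Dividing each column by the value of 1 read gave whole reads for 100% of values within 0.001 read, and normalized reads were those reads divided by the library's TMM size and multiplied by the geometric mean size. Log2 ratios had 1 read added, calls were made at 1.5-fold, and sites averaging 20 or more normalized reads were kept. Intervals of single ratios are exact binomial (Clopper-Pearson, 95%) on reads and cover counting error only, since reads are not independent molecules. With 1 library per group there was no test. Narrower sites were weighted to the wide sites in 20 bins of mean signal. Gaps were counted between edges of sites, and positions are mm9, counted from 1. The scripts were tested on simulated data. Python 3.11.15, numpy 2.4.6, pandas 2.3.3, scipy 1.17.1 and matplotlib 3.10.9 were used.

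Named were the 3 widest sites, the 3 with the largest ratios in each direction in both IL-4 comparisons and in the latrunculin A and MCSF comparisons (50 or more normalized reads on average, past 1.5-fold in both, ranked by the smaller log2 ratio), the 3 most even sites, the 3 windows of 100 kb with most wide sites and the sites at the limits of the rule. The limits, the comparisons and this rule were chosen with earlier results of these data known. The reference at hand was GRCm38, whose chromosome 1 is 195471971 bp long, while the last site on chromosome 1 ends at 197195351. Gene names and sequences from it were therefore not used here. Alternatives were other scales, centring on mean reads, other read offsets, filters, width and signal limits, bins, weights, neighbours and peak thresholds.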

Additional observations from a re-analysis of the deposited data

Results flagged for a closer look

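At 33 wide sites the IL-4 library was at least 1.5-fold higher than Untreated while DMSO + IL-4 was at least 1.5-fold lower than DMSO, and at 14 wide sites the 2 ratios pointed the other way round. Together these were 2.12% of wide sites, against 2.50% of all tested sites. With 1 library per group the difference between the 2 IL-4 ratios was not tested. The example with the largest opposite ratios in the first direction, chr2:143698872-143700728, had signal of 2.44 in Untreated and 8.77 with IL-4, 10.7 in DMSO and 1.68 with DMSO + IL-4, 10.2 under LatA + IL-4 and 7.59 under MCSF + IL-4. The one in the other direction, chr1:66889849-66891527, had 6.18, 2.54, 0.583, 3.21, 4.92 and 5.24 in the same order of libraries. Both sites were chosen after their values were seen.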

How the results depend on the processing

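Of 183 recomputed counts and medians, 126 differed little from the reported values, 56 moved and 1 changed sign. The number of libraries limits every result, since a group of 1 has no spread. No paired analysis was possible because each group has 1 library and no test was run. Using no filter on low sites, 10 bins, 5 added reads, no upper limit of signal, a stricter peak threshold or an overlap of 50% of a peak changed no count by over 1.5 times and no median beyond its spread. At the sites named for their ratios, all 120 recomputed log2 ratios kept their direction and stayed past 1.5-fold. Those sites had been picked for large ratios in the same comparisons, so this is a description only.

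Other scales shifted the median log2 ratio of all tested sites by up to -0.19 (LatA), -0.20 (MCSF) and -0.10 (DMSO against Untreated) with reads outside the largest sites, and by -0.12 (DMSO against Untreated) with total reads in sites. Scaled to total reads, 230 wide sites were lower in DMSO against Untreated. Scaled to reads outside the largest sites, 268 were higher and 779 lower with LatA, 293 and 698 with MCSF, and 115 and 356 with both. Centring on all tested sites of the same mean reads removes the median of mostly narrower sites. It gave 101 higher and 1227 lower with LatA, 113 and 1149 with MCSF, and 25 and 841 with both. In DMSO against Untreated it gave 64 and 487, or 2.89% and 22.0% of wide sites, against 10.1% and 10.7% of all tested sites. With IL-4 against Untreated 336 were lower, or 15.2%, against 12.3%. In classes 1 to 4 of signal per kb, the LatA medians were -0.55, -0.49, -0.30 and 0.38 with reads outside the largest sites. The MCSF medians were -0.55, -0.46, -0.29 and 0.39 on that scale and -0.42, -0.33, -0.16 and 0.53 with total reads. These alternatives for the classes were chosen after seeing the data.

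The wide minus narrower median log2 difference with a limit of 2000 bp was -0.26 (IL-4 against Untreated), 0.0017 (IL-4 in DMSO, which changed sign), -0.44 (DMSO alone), -0.89 (LatA) and -0.85 (MCSF). With 1000 bp it was -0.096 (IL-4 in DMSO), -0.24 (DMSO alone), -0.088 (DMSO, both with IL-4), -0.56 (LatA) and -0.55 (MCSF). Weighted on signal per kb it was -0.19 (LatA), -0.13 (MCSF), -0.12 (IL-4 against Untreated), -0.083 (IL-4 in DMSO), -0.085 (DMSO alone) and -0.046 (DMSO, both with IL-4). Chosen after seeing the data were wide sites with a single peak of 1500 bp, which gave -0.19 (IL-4 against Untreated), -0.25 (DMSO alone), -0.11 (DMSO, both with IL-4), -0.35 (LatA) and -0.37 (MCSF), and sites covered end to end, which gave -0.27 (IL-4 against Untreated), -0.39 (DMSO alone) and -0.73 (MCSF). The median gap to the nearest other site was 6282.5 bp (wide) and 3373 bp (narrower) with neighbours of at least 20 reads only, and 285 and 1153 bp with a limit of 2000 bp, at which the gap between wide sites was 1656580 bp. The cause of these shifts was not tested.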

Other observations

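At most 3 reads in at least 1 library were found at 7 of the 2214 wide sites. There were 2 in each library that had received IL-4 and 0 in Untreated and DMSO, with 1 site counted in a pair of libraries. The limit is in reads before scaling, and Untreated and DMSO were the deepest libraries. They had 19889902 and 17808959 reads in all sites, against 12387332 to 15303644 in the rest. The part of depth in this split was not tested, and no such count over all tested sites is given. The largest ranges over the libraries were at such sites. At chr11:111716919-111718492 the reads were 48 in Untreated and 1 with IL-4, 58 in DMSO and 41 with DMSO + IL-4, 34 under LatA + IL-4 and 106 under MCSF + IL-4. At chr4:140064283-140065794 they were 99, 39, 97, 20, 106 and 1 in the same order of libraries. Both sites were chosen after their values were seen.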
